A study of Mus musculus with 2 samples.

Results

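Cathepsins are the proteases of the lysosome and cystatins are small proteins that inhibit the cysteine type. The genes described here were 10 of the 33670 gene symbols in the count matrices, chosen by name: *Ctsa*, *Ctsb*, *Ctsc*, *Ctsd*, *Ctsh*, *Ctsl*, *Ctss*, *Ctsz*, *Cst3* and *Cst7*. All 10 were present in both libraries. The libraries were single cell RNA-seq (scRNA-seq) of live CD45+ cells sorted from the thalamus of C57BL/6J mice (C57B6/J in the labels) that had received a cortical injury, cortical ablation injury (CAI) in the methods. The control library came from mice given control Ab (normal rat IgG), and the anti-CD9 library from mice given anti-CD9 Ab (clone KMC8), which binds the tetraspanin CD9. Paired values are given in this order unless classes are named. Both antibodies were injected through a cannula into the right thalamus, in 0.5 μl at 1.0 μg/μl, from day 7 to day 19, and tissue was collected on day 21 after CAI. Both libraries therefore share the injury and the cannula, and no uninjured or uninjected library was analysed here. The methods give 4 pooled mice per thalamic library without repeating this for the antibody libraries. The age of the mice was not given in the labels.

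Cathepsins are made as inactive precursors, sorted to the lysosome and activated there. *Ctsb*, *Ctsc*, *Ctsh*, *Ctsl*, *Ctss* and *Ctsz* encode cysteine proteases, *Ctsd* an aspartic protease and *Ctsa* a serine carboxypeptidase. Cystatin C, the product of *Cst3*, is secreted and inhibits many cysteine cathepsins. Cystatin F, the product of *Cst7*, is directed to the lysosome, where cathepsin C is one of its best known targets. Cathepsin C in turn activates granule serine proteases of lymphocytes and neutrophils. In the brain, microglia express most of these genes, and *Cst7* and *Ctsl* are known markers of microglia that respond to damage.

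The control library held 12245 barcodes and 38042608 unique molecular identifiers (UMIs), and the anti-CD9 library 15173 barcodes and 40825201 UMIs. After the quality limits, 7467 cells (median 1880 UMIs) and 9161 cells (median 1419 UMIs) were kept, and 18 barcodes occurred in both libraries among them. Cells were clustered without the cathepsin and cystatin genes, and 17 of the 27 clusters took a name from markers of a cell type. The 10 unnamed clusters held 20.1% and 29.96% of the kept cells in the control and anti-CD9 libraries. Microglia-like cells numbered 1838 and 840 (median 3192 and 3365 UMIs), and macrophage-like cells 216 and 1176 (median 6095 and 5147 UMIs). *Cd9* mRNA itself was at 4091 and 1777 CPM (UMIs of the gene scaled to a common total over the cells of the class) in microglia-like cells, and at 4032 and 383 CPM in macrophage-like cells. With 1 library per antibody there was no test. Intervals are 95% and cover counting error only, and the antibodies, the pools of mice and the libraries cannot be told apart.

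Promoter windows of 250 bases before and 50 after the start site were found for 8 of the 10 genes in a RefSeq table (GRCm38.p6). *Ctsb* and *Ctsh* had no entry in the table. The windows were searched for the 6-base E-box CACGTG, the core of the element that transcription factors of the TFEB family bind at lysosomal genes. The motif is its own reverse complement, so 1 search covers both strands. Before the start site it occurred in *Ctsa*, *Ctsd* and *Ctsl*, which is 3 of the 8 genes, against 6.86% of all 27025 genes with a window. Each match is given in gene orientation with up to 12 flanking bases, because these genes are compared with those that lack it. The motif is in capitals.
Ctsa (chr2:164833749-164833772, plus strand): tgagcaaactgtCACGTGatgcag
Ctsd (chr7:142387908-142387937, minus strand): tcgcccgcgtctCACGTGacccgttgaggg
Ctsd (chr7:142388055-142388077, minus strand): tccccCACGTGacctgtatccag
Ctsl (chr13:64370739-64370768, minus strand): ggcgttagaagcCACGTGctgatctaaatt
The longer forms TCACGTG or CACGTGA occurred before the start site in *Ctsa* and *Ctsd*, 2 of the 8 genes, against 3.58% of all genes with a window. *Ctsl* had the 6-base core without them. A match describes the letters of the window and is not a bound site.

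In microglia-like cells, 8 of the 10 genes were lower and 2 were higher under anti-CD9 than in the control library. The lysosomal inhibitor *Cst7* differed most, and its known target *Ctsc* differed in the opposite direction. The median log2 ratio (anti-CD9 relative to control) of the 10 genes was −0.71, against 0.01 over the 11070 genes with 50 or more UMIs. The summed 8 cathepsins were at 24310 CPM in the control library and 18882 CPM under anti-CD9 (log2 ratio −0.36, −0.38 to −0.35). A gene was called at a 2-fold difference or more: 2 of the 10 were called lower, where 4.16% of all genes were, and 0 were called higher, where 3.54% were.

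*Cst7* was at 988 CPM (969 to 1007) in the control library and 293 CPM (274 to 313) under anti-CD9, 3.37-fold lower (log2 ratio −1.75, −1.85 to −1.65). *Cst3* was at 9827 CPM in the control library and 5409 CPM under anti-CD9 (−0.86, −0.89 to −0.84). Both inhibitors were thus lower, with intervals that did not overlap. *Ctsc* was at 648 CPM (633 to 664) in the control library and 1100 CPM (1063 to 1138) under anti-CD9, 1.70-fold higher (log2 ratio 0.76, 0.70 to 0.82). *Ctss*, the cathepsin known for trimming the MHC class II invariant chain, was at 5271 and 6621 CPM (0.33, 0.31 to 0.35). *Ctsc* and *Ctss* were the 2 genes that were higher.

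The remaining cathepsins were lower or level in microglia-like cells. *Ctsl*, an endopeptidase, was at 3801 CPM in the control library and 1899 CPM under anti-CD9 (log2 ratio −1.001, −1.04 to −0.96), just past the 2-fold call. *Ctsd*, which degrades bulk protein in lysosomes, was at 7559 and 4241 CPM (−0.83, −0.86 to −0.81). *Ctsa*, which also protects other lysosomal enzymes, was at 431 and 253 CPM (−0.77, −0.88 to −0.66). Of the 8 genes with a promoter window, the 3 with the E-box (*Ctsa*, *Ctsd* and *Ctsl*) had log2 ratios between −1.001 and −0.77. The ratios of those without it lay on both sides, from −1.75 (*Cst7*) and −0.86 (*Cst3*) to 0.76 (*Ctsc*). The part of the motif in these ratios was not tested. *Ctsb* was at 3749 and 2390 CPM (−0.65, −0.69 to −0.61). *Ctsz*, a carboxypeptidase also called cathepsin X, was at 1889 and 1424 CPM (−0.41, −0.46 to −0.36). *Ctsh*, an aminopeptidase, was at 962 and 953 CPM, and the interval of its ratio included 0 (−0.01, −0.07 to 0.05). When the libraries were clustered without integration, the class held 1908 and 210 cells, and neither call remained. The log2 ratio of *Cst7* was −0.85 and that of *Ctsl* −0.37, with *Ctsc* at 0.42. In that clustering a cluster of 62 and 606 cells, nearest to microglia, had few markers raised and was left unnamed. These ratios thus do not cover the same cells.

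**Figure D1:**
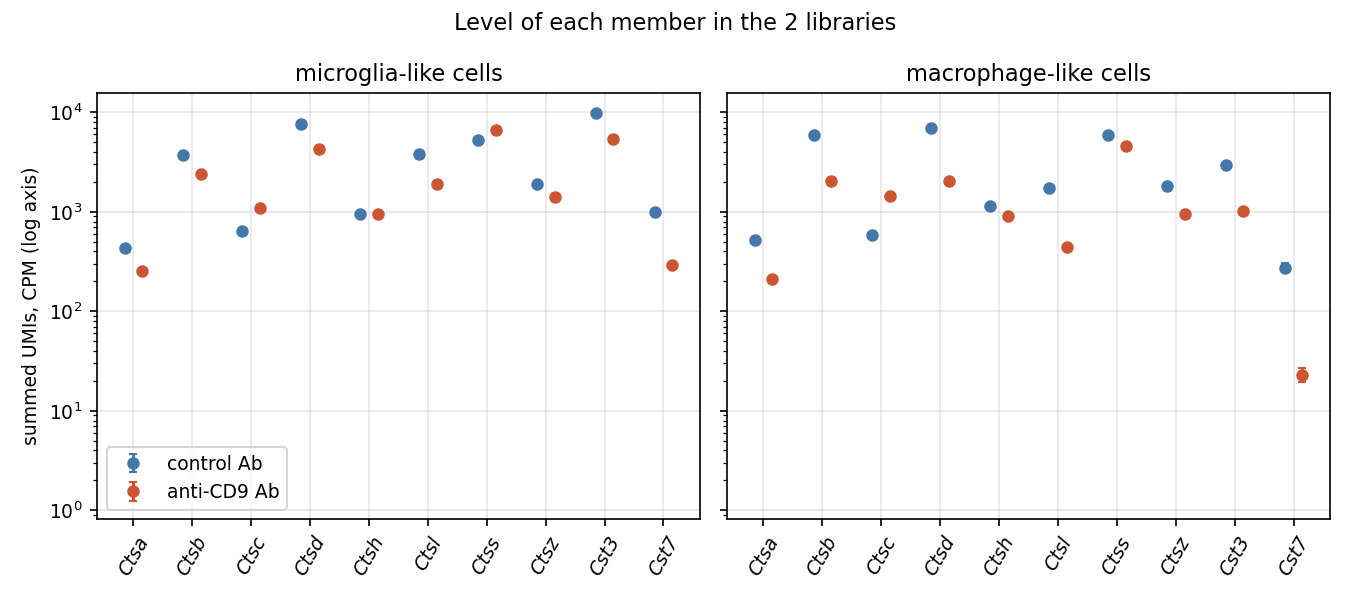
Level of each gene in CPM (log axis), summed over the microglia-like cells (left) and the macrophage-like cells (right) of each library. Points are the libraries and bars are 95% Poisson intervals, mostly smaller than the points. *Ctsc* was the gene with its anti-CD9 Ab point above its control Ab point in both panels (648 and 1100 CPM at left).

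These differences came with differences in markers of cell identity. The summed 10 microglia markers were at 12199.6 CPM in the control library and 8060 CPM under anti-CD9, all 10 lower. Of the macrophage markers 9 of 10 were higher and *Lyz2* was lower, and their sum went from 2194 to 1729 CPM. Neutrophil markers were higher for 9 of 10 (504 and 1185 CPM summed), and all 8 T cell markers were lower (181 and 23.8 CPM). None of these markers was at 0 in either library. The part of these markers in the cathepsin values was not tested.

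Microglia-like cells were made of clusters 2 and 5, and both showed most of the same directions. Cluster 2, led by *Siglech* and *P2ry12*, held 956 and 484 cells in the control and anti-CD9 libraries. Cluster 5, led by *Lpl* and *Spp1*, held 882 and 356 cells. Predicted doublets were 1.67% and 12.0% of cluster 2, and 10.1% and 22.5% of cluster 5. *Ctsc* was higher by a log2 ratio of 0.75 in cluster 2 (604 and 1015 CPM) and of 0.82 in cluster 5 (677 and 1198 CPM). *Cst7* was lower in both, at 427 and 118 CPM in cluster 2 (−1.86, −2.08 to −1.65) and at 1348 and 496 CPM in cluster 5 (−1.44, −1.55 to −1.33). *Ctss* was higher in both, by 0.49 and 0.20.

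The other cathepsins differed less in cluster 2 than in cluster 5. *Ctsb* had a log2 ratio of −0.23 in cluster 2 and −0.65 in cluster 5, and *Ctsd* had −0.54 and −0.85. *Ctsl* went from 2413 to 1595 CPM in cluster 2 (−0.60, −0.66 to −0.53), and from 4692 to 2250 CPM in cluster 5 (−1.06, −1.11 to −1.01). The summed 8 cathepsins were close to level in cluster 2 (17740 and 17128 CPM, −0.05, −0.07 to −0.03), and lower in cluster 5 (28532 and 20913 CPM, −0.45, −0.47 to −0.43). When the clusters were weighted as in the control library, the ratio of *Cst7* was −1.505, that of *Ctsl* −0.93 and that of *Ctsc* 0.80.

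Within a library, the step from cluster 2 to cluster 5 separated the members as well. In the control library, *Cst7* was higher in cluster 5 by a log2 ratio of 1.66, *Ctsb* by 1.14 and *Ctsl* by 0.96, while *Ctsc* was higher by 0.16. *Cst3* was lower in cluster 5, with a log2 ratio of −0.85. Under anti-CD9, *Cst7* again had the largest step (2.08, 1.85 to 2.31), whereas those of *Ctsb* (0.72) and *Ctsl* (0.50) were smaller than in the control library. *Ctss* was the gene whose step changed sign, from 0.18 in the control library to −0.11 under anti-CD9. These steps describe the clusters and carry no test.

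In macrophage-like cells, 9 of the 10 genes were lower under anti-CD9 and *Ctsc* was higher. The median log2 ratio was −1.41, against −0.05 over 9072 genes. The summed 8 cathepsins went from 24624 to 12584 CPM (−0.97, −0.99 to −0.95). Of the 10 genes, 6 were called lower, where 6.85% of all genes were. One (*Ctsc*) was called higher, where 7.37% of all genes were.

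*Ctsc* was at 580 CPM (542 to 621) in the control library and 1430 CPM (1401 to 1460) under anti-CD9, 2.46-fold higher (log2 ratio 1.30, 1.20 to 1.40). *Ctsd* was at 6928 and 2060 CPM (−1.75, −1.79 to −1.71), and *Ctsb* at 5974 and 2030 CPM (−1.56, −1.60 to −1.52). *Ctsl* was at 1724 and 441 CPM (−1.97, −2.04 to −1.89). These 3 proteases were thus lower by more than 2-fold, and *Ctsa* was too, at 519 and 213 CPM (−1.28, −1.41 to −1.16). *Ctsz* was at 1816 and 959 CPM (−0.92, −0.99 to −0.86), and *Ctsh* at 1144 and 908 CPM (−0.33, −0.41 to −0.25). *Ctss* was at 5939 and 4543 CPM (−0.39, −0.42 to −0.35), in the opposite direction from microglia-like cells.

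Both inhibitors were called lower in macrophage-like cells. *Cst3* was at 2978 and 1024 CPM (−1.54, −1.59 to −1.48). *Cst7* was at 276 CPM (249 to 304) in the control library and 22.8 CPM (19.3 to 26.8) under anti-CD9 (log2 ratio −3.59, −3.87 to −3.32). Of these UMIs, 285 of 405 in the control library and 3 of 148 under anti-CD9 lay in sub-cluster 4, described next, whose microglia markers summed to 6573 and 1187 CPM. Per cell, the control library held a mean of 1.88 *Cst7* UMIs in macrophage-like cells, 0.803 in oligodendrocyte-like cells and 0.263 in T cell-like cells, which differ in depth. Of all UMIs of the class there, *Cst7* was 405 of 1469549 in macrophage-like and 244 of 569423 in oligodendrocyte-like cells. By this measure the oligodendrocyte-like value was the higher. How much of the macrophage-like value was free RNA was not tested. The microglia markers moved with these values: their sum in macrophage-like cells was 3822 CPM in the control library and 815 CPM under anti-CD9, all 10 lower. The 7 monocyte markers were all higher, with a sum of 1383 CPM and 5319 CPM. The macrophage markers summed to 21241 and 21018 CPM. The part of these markers in the result was not tested. Without sub-clusters 4 and 5, a choice made after the data were seen that left 145 of 216 and 1098 of 1176 cells, the log2 ratio of *Cst3* was −0.76, below the 2-fold call in size, and that of *Cst7* −2.64. Most control cells of sub-cluster 4 left out in this way were not predicted doublets.

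The macrophage-like class was 1 cluster in which 60% of the macrophage markers and 71.4% of the monocyte markers were raised over other cells, and it took its name from the macrophage markers among its leading genes (*F13a1*, *Arg1*, *Tgfbi* and *Lyz2*). It was divided into 6 sub-clusters, which the libraries filled unequally. Sub-cluster 1 was led by *Gpnmb*, *Fabp5* and *Spp1* and held 99 cells in the control library and 257 under anti-CD9. Sub-cluster 0, led by *Lcn2*, *Saa3* and *Nos2*, held 17 and 466 cells. Predicted doublets were 0% and 14.0% of sub-cluster 1, and 0% and 36.5% of sub-cluster 0. Sub-cluster 4 held 52 and 40 cells, of which 19.2% and 95% were predicted doublets. It held 2751 of the 4376 *Cst3* UMIs of the class in the control library. Sub-cluster 5 held 19 and 38 cells, of which 94.7% and 92.1% were predicted doublets. The other 2 had 17 and 12 cells in the control library.

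*Ctsc* was higher under anti-CD9 in all 6 sub-clusters, by log2 ratios of 0.57 to 1.44. Only sub-cluster 1 held 50 or more cells in each library, so the values of the others rest on few cells. Sub-cluster 4 also differed in kind between the libraries, with neutrophil markers at 832 and 9353 CPM summed. In sub-cluster 1 *Ctsc* was at 420 and 912 CPM (1.12, 0.92 to 1.32). The rest of the family differed less there than in the whole class. *Ctsd* went from 8783 to 5769 CPM (−0.61, −0.66 to −0.55), *Ctsb* from 8405 to 4805 CPM (−0.81, −0.86 to −0.75) and *Cst3* from 1461 to 1301 CPM (−0.17, −0.29 to −0.05). *Ctsl* remained over 2-fold lower in sub-cluster 1, at 1686 and 650 CPM (−1.38, −1.51 to −1.24). *Ctss* was higher there (0.18) and in sub-cluster 2 (0.62), and lower in the other 4 (−0.37 to −0.51). With the sub-clusters weighted as in the control library, the summed 8 cathepsins had a log2 ratio of −0.66, *Ctsd* −1.06, *Ctsb* −1.06 and *Ctsc* 1.07.

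**Figure D2:**
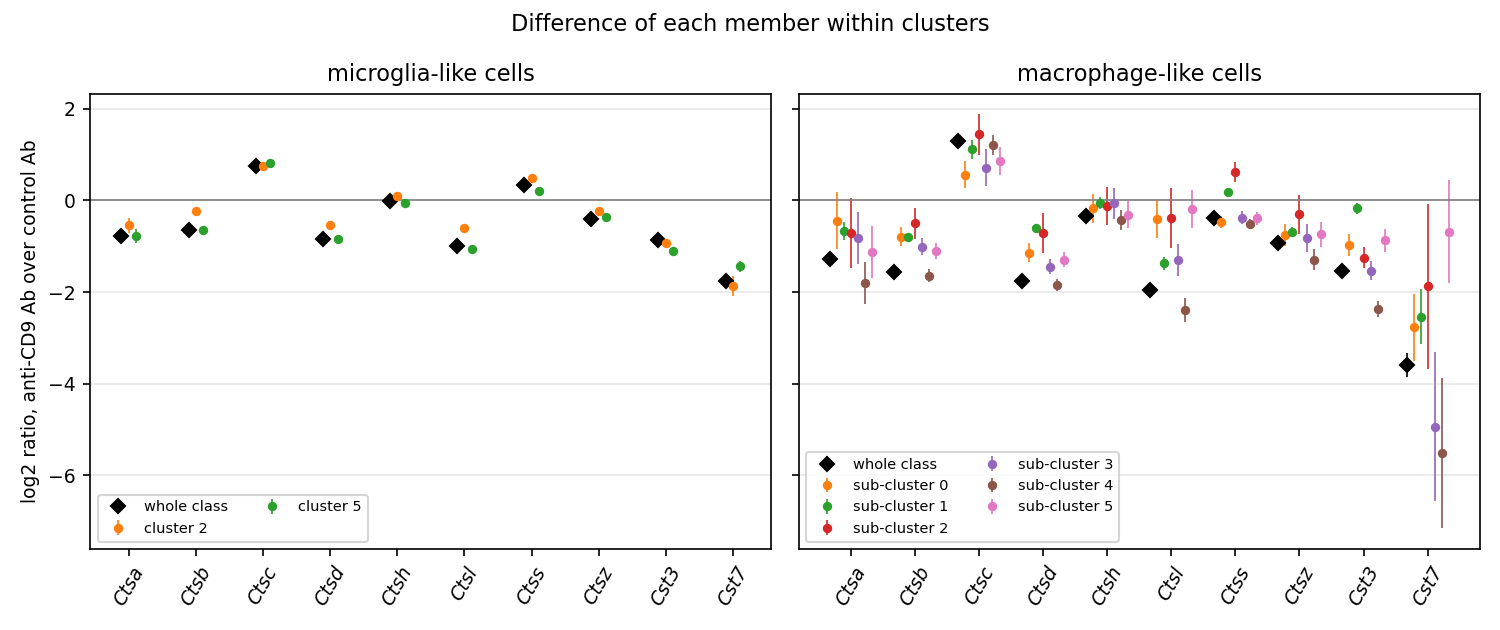
Log2 ratio (anti-CD9 relative to control) of each gene in the whole class (diamonds) and within its clusters (circles), for microglia-like cells (left) and macrophage-like cells (right), with 95% counting intervals. *Ctsc* lay above 0 in every cluster shown, but of the sub-clusters only sub-cluster 1 held 50 or more cells in each library. In macrophage sub-cluster 1 (right), *Ctsd* was at −0.61, against −1.75 for the whole class.

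The ratio of inhibitor to protease was taken within each library, where it does not depend on the scaling. Each molecule is counted once at its 3′ end, so no length entered these ratios. Microglia-like cells had 152 *Cst7* UMIs per 100 *Ctsc* UMIs in the control library (148 to 157) and 26.6 under anti-CD9 (24.7 to 28.7). In microglial cluster 2 the values were 70.8 (66.5 to 75.3) and 11.6 (9.92 to 13.5), and in cluster 5 they were 199 (192 to 207) and 41.4 (37.9 to 45.3). The balance was thus lower under anti-CD9 in both clusters, with intervals that did not overlap. Against *Ctsl*, *Cst7* was at 26.0 UMIs per 100 in the control library and 15.4 under anti-CD9. *Cst3* was at 60.2 UMIs per 100 UMIs of the 6 cysteine cathepsins (59.7 to 60.7) in the control library and 37.6 (36.9 to 38.3) under anti-CD9. In macrophage sub-cluster 1, *Cst3* was at 7.10 and 7.91 per 100, so that this balance did not show the same direction there.

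**Figure D3:**
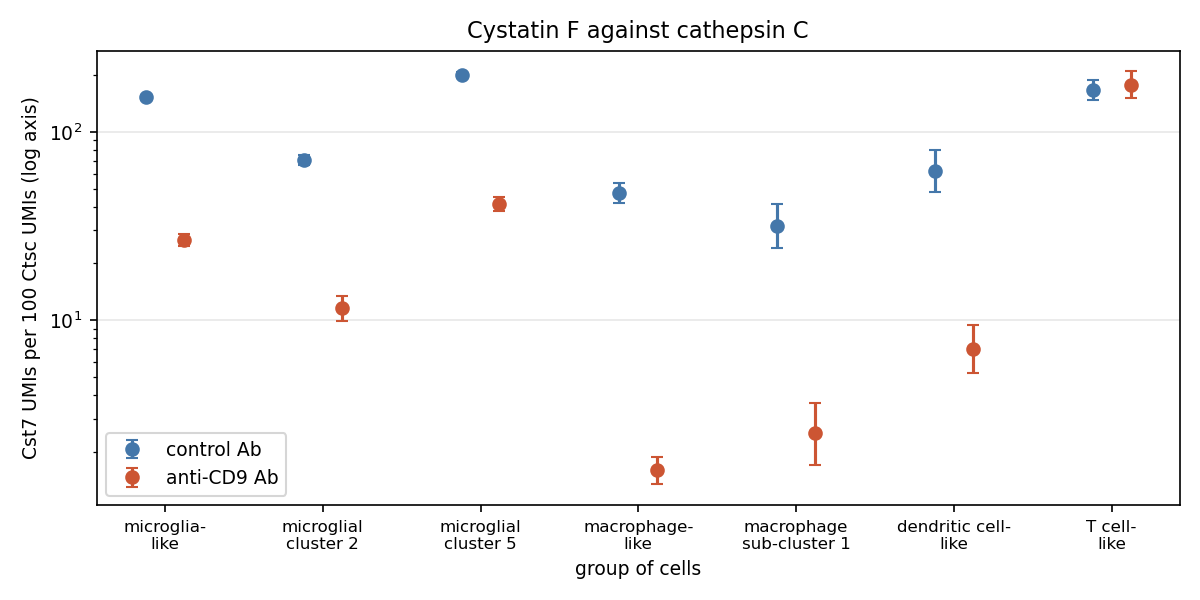
UMIs of *Cst7* per 100 UMIs of *Ctsc* (log axis) in 7 groups of cells of each library, with 95% exact intervals. The microglia-like value was 152 in the control library and 26.6 under anti-CD9. In T cell-like cells as a whole it was 166 and 177, with overlapping intervals, but the clusters of that class differed in direction.

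The make-up of the cathepsin UMIs also differed. *Ctsc* was 2.67% of the UMIs of the 8 cathepsins in microglia-like cells in the control library and 5.83% under anti-CD9. In macrophage-like cells it was 2.36% and 11.4%. *Ctss* was 21.7% and 35.1% in microglia-like cells, and 24.1% and 36.1% in macrophage-like cells. *Ctsb* and *Ctsd* together were 46.5% and 35.1% in microglia-like cells, and 52.4% and 32.5% in macrophage-like cells. The shares of *Ctsc* and *Ctss* were therefore higher under anti-CD9 in both classes. The level of *Ctss* was higher in microglia-like cells and lower in macrophage-like cells.

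To compare how many cells carried each transcript, every cell was thinned to 1000 UMIs, and shallower cells were left out (37 and 23 microglia-like, 2 and 2 macrophage-like). *Cst7* was then detected in 40.2% (37.9 to 42.5%) of 1801 microglia-like cells in the control library and 17.1% (14.6 to 19.9%) of 817 under anti-CD9. Without thinning, the shares were 59.4% and 36.7%. *Ctsc* was detected in 44.1% (41.8 to 46.5%) and 59.0% (55.5 to 62.4%) of microglia-like cells, and 80.1% and 89.4% without thinning. Cells with both *Cst7* and *Ctsc* were 18.5% and 9.79%, and cells with *Ctsc* alone were 25.6% and 49.2%. The share with neither was 34.2% and 33.7%, with overlapping intervals.

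In macrophage-like cells at the same depth, *Ctsc* was detected in 41.6% (34.9 to 48.5%) of 214 cells in the control library and 68.2% (65.5 to 70.9%) of 1174 under anti-CD9. Unthinned, the shares were 88.9% and 96.0%. *Ctsl* was detected in 61.7% (54.8 to 68.2%) and 31.0% (28.4 to 33.7%), or 91.2% and 70.8% unthinned. *Cst7* was detected in 13.1% (8.87 to 18.4%) and 1.79% (1.11 to 2.72%), or 45.4% and 8.76% unthinned. T cell-like cells were thinned in the same way for comparison, and how much of their counts was background was not tested. Their median depths were 1555 and 2285 UMIs, and *Ctsl* was detected in 14.0% and 3.99% of them and *Ctsc* in 8.99% and 8.65%. Oligodendrocyte-like cells (median 1021.5 and 844 UMIs) gave *Cst7* in 16.7% of 156 cells in the control library and in 0 of 31 under anti-CD9 (exact interval 0 to 11.2%). That control share had an exact interval of 11.2 to 23.5%, which overlapped the one of macrophage-like cells, and it was 17.4% unthinned. Since the classes differ in depth before thinning, background was not separated from expression for *Cst7* in macrophage-like cells.

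**Figure D4:**
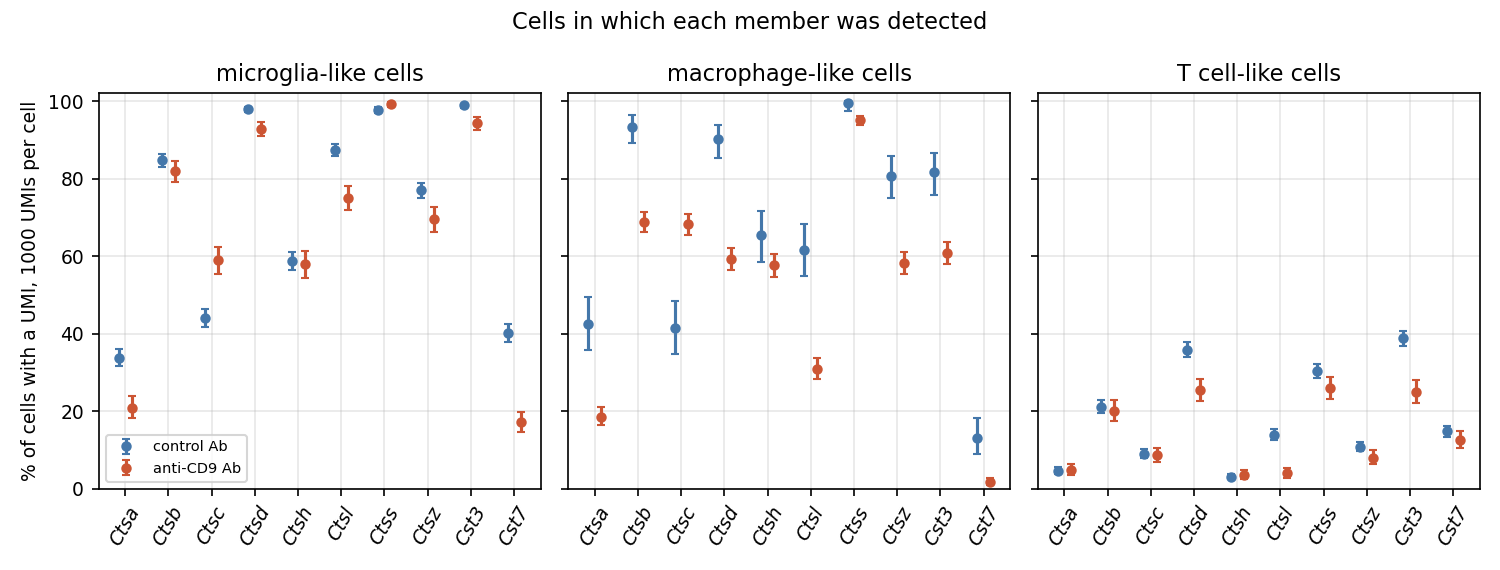
Percent of cells with at least 1 UMI of each gene after thinning every cell to 1000 UMIs, in microglia-like, macrophage-like and T cell-like cells of each library, with exact binomial 95% intervals. *Ctsc* was detected in more cells under anti-CD9 in microglia-like (44.1% and 59.0%) and macrophage-like cells, and *Cst7* in fewer.

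In dendritic cell-like cells (120 and 381 cells), *Cst3* was at 8993 and 7777 CPM (−0.21, −0.25 to −0.17). Under anti-CD9 this was above its level in microglia-like cells. *Ctsc* was at 243 and 447 CPM (0.88, 0.63 to 1.12) and *Ctss* at 1407 and 1879 CPM (0.42, 0.31 to 0.52). *Ctsh* was at 632 and 754 CPM (0.26, 0.10 to 0.42), and *Ctsz* at 499 and 534 CPM, with an interval that included 0. *Ctsb* was at 632 and 339 CPM (−0.90, −1.08 to −0.71), and *Ctsa* at 96.7 and 80.3 CPM, with an interval that included 0. *Ctsd* was at 716 and 307 CPM (−1.22), *Ctsl* at 414 and 110.2 CPM (−1.91) and *Cst7* at 151 and 31.6 CPM (−2.26). These were the genes called lower, 3 of the 10, where 3.48% of all genes were, and 0 were called higher, where 7.06% were. The libraries filled the clusters of this class unequally. Cluster 17, led by *Wdfy4* and *Zfp366*, held 103 and 213 cells, and cluster 20, led by *Ccr7* and *Fscn1*, held 17 and 168. The microglia markers in dendritic cell-like cells summed to 1019 CPM in the control library and 496 CPM under anti-CD9, and 8 of the 10 were lower. The macrophage markers there summed to 706 and 2275 CPM, with 8 of 10 higher and *Mrc1* and *Cd163* lower. Their part in the values was not tested.

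In T cell-like cells (2807 and 970 cells), all 8 cathepsins had a lower level under anti-CD9, though the intervals of *Ctsa*, *Ctsc* and *Ctsh* included 0. *Cst7* was at 151 and 154 CPM (0.02, −0.15 to 0.20), whereas *Ctsl* was at 175 and 38.7 CPM (−2.18, −2.47 to −1.89). For *Cst7* relative to *Ctsc*, the class pooled clusters that differed in direction. In cluster 0 (1217 and 447 cells), *Cst7* stood at 169 and 65.1 UMIs per 100 *Ctsc* UMIs, with intervals that did not overlap. It stood at 195 and 303 in cluster 7, 182 and 242 in cluster 8, 176 and 362.5 in cluster 16, and 66.7 and 148 in cluster 22. The intervals overlapped in these other clusters. By its own level, *Cst7* was higher in clusters 7, 8 and 16. It was lower in clusters 0 and 22 (34 of 199126 and 74 of 611860 UMIs in cluster 22). *Cst3* was at 584 and 308 CPM (−0.92) and *Ctsd* at 529 and 292 CPM (−0.86). The log2 ratio was −0.61 for *Ctsz*, −0.38 for *Ctss*, −0.29 for *Ctsh*, −0.25 for *Ctsb*, −0.22 for *Ctsa* and −0.07 for *Ctsc*. *Ctsl* was the 1 gene called lower, where 2.53% of all genes were, and 0 were called higher, where 3.18% were. The microglia markers in T cell-like cells summed to 411 and 188 CPM, 9 of 10 lower. *Cst7* stood at 86.3 UMIs per 100 *Ctsl* UMIs in T cell-like cells in the control library, against 26.0 in microglia-like cells. How much of the *Ctsl* and *Cst7* values of T cell-like cells was free RNA was not tested. Cluster 10, an unnamed cluster of 416 and 165 cells led by *Gzma* and *Nkg7*, had 237 and 207 CPM of *Cst7* (−0.19, −0.57 to 0.18) and 103 and 228 CPM of *Ctsc* (1.14, 0.72 to 1.56). It was singled out after its values were seen.

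Neutrophil-like cells numbered 66 in the control library and 2637 under anti-CD9, so that the control values rested on 73161 UMIs. The libraries also filled the clusters of this class unequally. Cluster 9, led by *Retnlg* and *S100a9*, held 50 and 748 cells, and cluster 1, led by *Cxcl2* and *Ccl4*, held 15 and 1520. Cluster 15, led by *Mmp9* and *Cxcr2*, held 1 and 369. The part of this make-up in the ratios was not tested. All 10 genes had a ratio below 0, but the intervals of *Ctsb* (−0.10, −0.45 to 0.26), *Ctsh* (−0.43, −1.34 to 0.48) and *Ctsz* (−0.11, −0.57 to 0.36) included 0, and the median over all genes was −0.13. *Ctss* was at 1381 and 789 CPM (−0.81). The genes called lower were *Ctsa* (−1.501), *Ctsd* (−1.15), *Ctsl* (−2.63), *Cst3* (−1.96) and *Cst7* (−3.96), 5 of the 10, where 19.6% of all genes were. None (0) was called higher, where 20% of all genes were. *Ctsc* rested on 10 UMIs in the control library and was at 137 and 71.5 CPM (−0.93, −1.85 to −0.02). In plasma cell-like cells (151 and 142 cells), *Ctsl* was at 229 and 41.2 CPM (−2.48). There the ratio was −3.84 for *Cst7*, −2.05 for *Ctsd*, −1.07 for *Cst3*, −0.96 for *Ctss*, −0.89 for *Ctsh*, −0.80 for *Ctsb* and −0.79 for *Ctsc*, and the intervals of *Ctsa* (−0.55) and *Ctsz* (−0.09) included 0. In oligodendrocyte-like cells (304 and 94 cells), *Ctsl* was at 1233 and 202 CPM (−2.61). There *Cst7* had 244 and 2 UMIs and *Ctsa* 95 and 3 UMIs, the ratio was −1.76 for *Ctsd*, −1.68 for *Ctsz*, −1.39 for *Ctsb*, −0.82 for *Cst3* and −0.39 for *Ctss*, and the intervals of *Ctsc* (0.08) and *Ctsh* (−0.41) included 0. The summed microglia markers were lower under anti-CD9 in the same classes, at 1996 and 419.6 CPM in neutrophil-like, 651 and 117 CPM in plasma cell-like and 3084 and 1347 CPM in oligodendrocyte-like cells. In neutrophil-like cells the macrophage markers also summed to 7395 and 3545 CPM (6 of 10 lower). The monocyte markers there summed to 3964 and 1565 CPM (5 of 7 lower). The neutrophil markers of this class itself summed to 86631 and 39944 CPM (6 of 10 lower). Their part in these differences was not tested. In astrocyte-like cells (430 and 77 cells), the log2 ratio was −1.81 for *Ctsl*, −1.36 for *Ctsz*, −1.21 for *Ctsd* and −0.58 for *Cst3*, and *Cst7* had 140 and 0 UMIs. The intervals of *Ctsa*, *Ctsb*, *Ctsc*, *Ctsh* and *Ctss* there included 0. The microglia markers in astrocyte-like cells summed to 1515 and 415 CPM, with 8 of 10 lower. The macrophage markers summed to 205 and 4265 CPM, with 9 of 10 higher. The part of both marker sets in the astrocyte-like values was not tested. B cell-like cells, 33 in the control library, were too few to compare. *Cd9* was at 617 and 338 CPM in dendritic cell-like, 187 and 67.0 CPM in T cell-like, 2747 and 2361 CPM in neutrophil-like, 246 and 132 CPM in plasma cell-like, 1421 and 806.5 CPM in oligodendrocyte-like and 754 and 213 CPM in astrocyte-like cells.

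**Figure D5:**
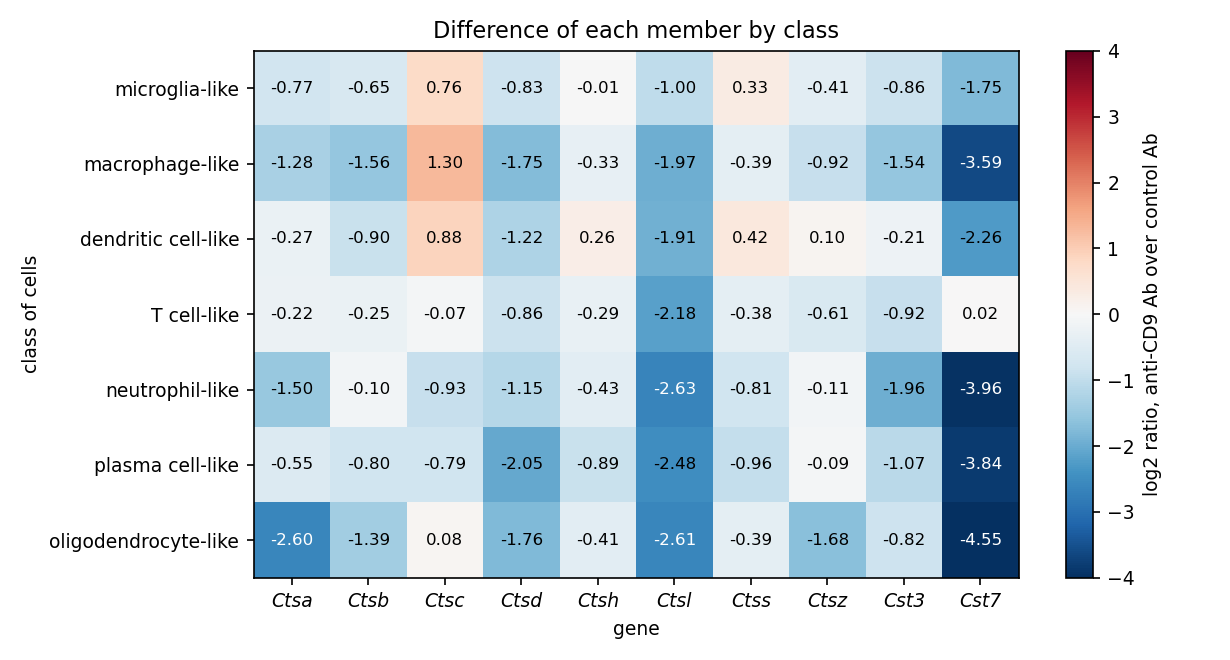
Log2 ratio (anti-CD9 relative to control) of each gene (columns) in 7 classes of cells (rows). Red is higher and blue is lower under anti-CD9. *Ctsl* was lower in every class shown, and *Ctsc* was highest in macrophage-like (1.30), dendritic cell-like (0.88) and microglia-like cells (0.76). The lower 4 rows hold the T cell-like, neutrophil-like, plasma cell-like and oligodendrocyte-like cells.

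By level, each cathepsin was highest in microglia-like or macrophage-like cells among the classes with 50 or more cells in each library. In the control library, *Ctsb* was higher in macrophage-like than in microglia-like cells (5974 and 3749 CPM), whereas *Ctsl* was higher in microglia-like cells (3801 and 1724 CPM). The order of *Ctsb* was reversed under anti-CD9 (2030 CPM in macrophage-like and 2390 CPM in microglia-like cells). *Ctsc* was higher in macrophage-like than in microglia-like cells under anti-CD9 (1430 and 1100 CPM), and lower there in the control library (580 CPM in macrophage-like and 648 CPM in microglia-like cells). *Cst7* was highest in microglia-like cells with both antibodies among these classes (988 and 293 CPM). Clusters 11, 19, 23 and 25 were nearest to microglia but unnamed, and were not ranked. Cluster 25 (35 and 37 cells) had *Cst7* among its leading genes, with 275 of 75708 UMIs and 89 of 71440 UMIs.

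Across 16 profiles (8 classes in each of the libraries, which share depth and free RNA), several pairs of members had like profiles. *Ctsb* and *Ctsd* had a Pearson r of 0.96, *Ctsd* and *Ctsl* 0.95, and *Ctss* and *Ctsh* 0.94. *Cst7* was the least like the others, with r of 0.31 to both *Ctsc* and *Ctsh*. Among all genes with 200 or more UMIs, the profiles most like *Ctsb* were those of *Tpp1* (0.98), a lysosomal peptidase, and *Cd68* (0.96). *Tpp1* was also the nearest to *Ctsd* (0.97) and *Ctsa* (0.95), followed by *C1qb* (0.96) and *Grn* (0.94), respectively. *C1qa* (0.98) and *Trem2* (0.98) were nearest to *Ctsl*. *Fcgr1*, an Fcγ receptor gene, was nearest to both *Ctsc* (0.94) and *Ctss* (0.96), followed by *Tifab* (0.93) and *Lamp1* (0.96). *Ctsh* was nearest to *Asah1* (0.97) and *Ptpro* (0.94), and *Ctsz* to *Grn* and *Lmo2* (both 0.95). *Cst3* was nearest to *Sh3pxd2a* (0.93) and *Slc12a9* (0.91), and *Cst7* to *Abhd17c* (0.94) and *Cd34* (0.88).

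Other genes of the pathway did not follow the members as 1 block in microglia-like cells. Of 14 genes of maturation, transport and transcription, 6 were lower and 8 higher, none past 2-fold, with a median log2 ratio of 0.03. *Lgmn*, the protease that activates several cathepsins, was at 2443 and 2514 CPM (0.04). In macrophage-like cells, 12 of the 14 were lower, with a median of −0.57, against −0.05 over all genes with 50 or more UMIs. Of the 14, 4 were called lower, where 6.85% of all genes were. *Grn*, whose product is carried to the lysosome, was among them at 1136 and 498 CPM (−1.19), and *Lgmn* was at 1498 and 764 CPM (−0.97). *Gnptg*, a subunit of the enzyme that tags lysosomal proteins, was at 23.1 and 6.63 CPM (−1.80, −2.45 to −1.15). *Igf2r*, a receptor for that tag, was at 30.6 and 47.0 CPM (0.62, 0.17 to 1.07).

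Among the inhibitors outside the chosen genes, *Cstb*, the cytosolic cystatin B, was higher under anti-CD9. It was at 157 and 253 CPM in microglia-like cells (0.69, 0.57 to 0.82) and at 1076 and 1266 CPM in macrophage-like cells (0.23, 0.16 to 0.31). *Cstb* thus had the opposite direction from *Cst3* and *Cst7* in both classes. It was also higher in the other classes compared, such as T cell-like (97.2 and 158 CPM) and oligodendrocyte-like cells (98.3 and 302 CPM). Of its 17997 UMIs under anti-CD9, macrophage-like cells held 8206 and neutrophil-like cells 2928. How much of the *Cstb* values was free RNA was not tested. *Timp2*, an inhibitor of matrix metalloproteases, was at 1429 and 691 CPM in microglia-like cells (−1.05) and at 783 and 97.5 CPM in macrophage-like cells (−3.01). It was lower too in T cell-like (−1.15), dendritic cell-like (−2.72), neutrophil-like (−1.77) and plasma cell-like cells (−2.62). How much of the *Timp2* values was free RNA was not tested. *Serpinb9*, an inhibitor of granzyme B, was at 8.97 and 20.5 CPM in microglia-like cells (1.19, 0.73 to 1.66) and at 10.2 and 12.5 CPM in macrophage-like cells (0.29, −0.50 to 1.09). *Cstdc4* had 4 and 60 UMIs in microglia-like cells. It belongs to a group of near-identical stefin copies, and 3117 of its 3143 UMIs came from the anti-CD9 Ab library. Neutrophil-like cells held 16 and 2562 of these UMIs, and the neutrophil markers were also higher in microglia-like cells (504 and 1185 CPM summed). How much of the *Cstdc4* value in microglia-like cells was free RNA was not tested, so that value is uncertain. In microglia-like cells, 2 of the 12 other cystatins and 3 of the 7 other inhibitors reached 50 UMIs.

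Of the 6 other cathepsin genes, 5 had 50 or more UMIs in all kept cells. *Ctsw*, expressed by cytotoxic lymphocytes, had 231 and 205 CPM among T cell-like cells (−0.17, −0.32 to −0.03), and had 59 and 1 UMIs in microglia-like cells, where the T cell markers were lower too. *Ctse*, an aspartic protease, was at 22.6 and 14.5 CPM in microglia-like cells (−0.64) and at 26.5 and 9.72 CPM in macrophage-like cells (−1.45). *Ctsf* was at 96.8 and 66.1 CPM in microglia-like cells (−0.55, −0.77 to −0.33). *Ctso* was at 64.4 and 60.8 CPM in microglia-like cells (−0.08, −0.32 to 0.15). *Ctsk*, the collagen-degrading cathepsin of osteoclasts, had 129 UMIs in all, and was at 7.49 and 6.63 CPM in macrophage-like cells. *Ctsg*, the neutrophil protease, had 4 UMIs in all.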

How the data were processed

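Single cell RNA-seq (10x Genomics 3′ chemistry) of sorted CD45+ thalamic cells was analysed in 1 control and 1 anti-CD9 library. The deposited values were raw UMI counts per gene and barcode, made by the authors with Cell Ranger. The submitters' processing notes name Cell Ranger 8.0.0 and the GRCm39 genome, whereas the paper's methods name an earlier version and build. Counting error is the only error that the intervals measure, since there was 1 library per antibody.

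Cells with 200 to 7500 genes and at most 2% mitochondrial UMIs were kept, 60.98% and 60.4% of barcodes. They were log-normalised to 10000 and integrated over 30 dimensions with 2000 variable genes in Seurat 5.3.0 (R 4.3.3), without 102 cathepsin, cystatin, pathway and state genes. They were clustered at resolution 0.8, and macrophage-like cells again at 0.5 with 20 components. A cluster was named where 50% or more, and at least 3, of a type's markers were raised. No other type could lead its top genes, and under 75% of any other type's markers could be raised. A cluster with more than 50% predicted doublets was left unnamed, as cluster 26 was (1 and 63 cells). Where several types qualified, the one with most markers among the leading 10 genes was taken. This naming rule was set after the clusters were seen. Predicted doublets were otherwise kept. The share marked in each library (9.79% and 12.1%) was set by its number of barcodes, at 0.8% per 1000, and was not a measured rate. Of microglia-like cells 5.71% and 16.4% were marked, and of macrophage-like cells 13.9% and 31.5%. UMIs were summed per class and library, scaled to CPM, and compared as log2 ratios (Python 3.11.15, NumPy 2.4.6, SciPy 1.17.1). Levels carry exact Poisson, shares exact (Clopper-Pearson) binomial and ratios Poisson 95% intervals, which cover counting error only. A count of 0 was replaced by a part of 1 count in ratios. Genes with 50 or more UMIs over both libraries entered the background, and a 2-fold difference was called. Likeness used log2(CPM + 20). The ratio and interval code was tested on simulated data.

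All 10 members were named in every class compared, with the 3 lowest and 3 highest other pathway genes of microglia-like and macrophage-like cells, every other cathepsin with 50 or more UMIs, the 2 genes most like each member, *Cd9* and leading genes of clusters. Other pathway genes printed (*Lgmn*, *Grn*), and the other classes given for *Cstb* and *Timp2*, were chosen after their values were seen. Members, gene lists and comparisons were chosen with earlier results of these data known. The alternatives tried were another mitochondrial limit, no integration, fewer components, another seed, doublets left out, other naming, scaling, weighting and make-up.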

Additional observations from a re-analysis of the deposited data

Results flagged for a closer look

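Of the 10 genes, 3 had log2 ratios (anti-CD9 Ab over control Ab) of opposite sign in different classes of cells, each with a counting interval that left out 0. The differences between classes were not tested, since there was 1 library per antibody. *Ctsc* had a ratio of 1.30 in macrophage-like, 0.88 in dendritic cell-like and 0.76 in microglia-like cells, but −0.93 in neutrophil-like and −0.79 in plasma cell-like cells. *Ctsh* had 0.26 in dendritic cell-like cells, −0.33 in macrophage-like cells and −0.89 in plasma cell-like cells. *Ctss* had 0.42 in dendritic cell-like and 0.33 in microglia-like cells. Its ratio was −0.38 in T cell-like, −0.39 in macrophage-like, −0.39 in oligodendrocyte-like, −0.81 in neutrophil-like and −0.96 in plasma cell-like cells. The neutrophil-like value of *Ctsc* rested on 10 UMIs with control Ab. The libraries filled the neutrophil-like and the dendritic cell-like clusters unequally. The summed microglia markers were lower under anti-CD9 Ab in each of these classes, such as neutrophil-like (1996 and 419.6 CPM) and plasma cell-like cells (651 and 117 CPM). In dendritic cell-like cells the summed macrophage markers were higher (706 and 2275 CPM), and in neutrophil-like cells they were lower (7395 and 3545 CPM). The summed neutrophil markers of neutrophil-like cells were lower as well (86631 and 39944 CPM). Their part in the ratios was not tested.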

How the results depend on the processing

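The direction of 19 of the 20 member ratios in microglia-like and macrophage-like cells was kept under all 11 alternatives of each class, and *Ctsh* in microglia-like cells kept its sign in 7 of 11. The median of the 10 members in microglia-like cells (−0.71) was −0.38 without integration, −0.58 with the mean of CPM per cell and −0.63 at the control Ab make-up. The summed 8 cathepsins there (−0.36) were −0.40 at a mitochondrial limit of 5%, −0.22 without integration, −0.32 with 20 components, −0.33 with another seed, −0.32 without predicted doublets, −0.35 with cells named by their own markers, −0.38 when centred, −0.26 with the mean per cell, −0.32 at the control Ab make-up, −0.39 with clusters named by nearest type and −0.38 with that naming and no integration. In macrophage-like cells the median (−1.41) was −0.99 at the 5% limit, −1.32 without predicted doublets, −1.11 by own markers, −1.26 with the mean per cell, −1.06 at the control Ab make-up, −1.04 by nearest type without integration and −1.08 without macrophage sub-clusters 4 and 5. The sum there (−0.97) was −0.87 at the 5% limit, −1.05 by own markers, −0.92 when centred, −0.92 with the mean per cell, −0.66 at the control Ab make-up, −1.13 by nearest type and −0.99 without macrophage sub-clusters 4 and 5. The nearest type and sub-cluster alternatives were chosen after seeing the data. The cause of these shifts was not tested. Without integration no cluster was named macrophage-like, so that value could not be had. With a minimum of 1 UMI in each library, 7.11% of all genes were called lower and 11.3% higher in microglia-like cells, and 19.8% lower in macrophage-like cells. With 200 UMIs, 2.59% and 4.28% were called lower in these classes. No paired analysis was possible because each antibody had 1 library. Depth limits the neutrophil-like control values most.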
